A study of Mus musculus with 24 samples.

Results

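Col15a1, 8 other collagen genes grouped under the name of vessels and meninges (Col1a1, Col1a2, Col3a1, Col4a1, Col4a2, Col5a1, Col6a1 and Col6a2) and the membrane protease gene Adam33 were followed in the medial prefrontal cortex of 24 BALB/C mice. This name is a label that was not tested, and Col5a1 and Col6a1 had negative correlations with markers of fibroblast-like cells, as given below. The genes followed are 10 of the 15456 genes in the table of normalized counts, and each symbol matched a single entry. The genes were chosen by name after values measured in these same mice were known, and which comparison they were selected on is not recorded, so their differences between groups are given as a description. No p-value is given for them, and which of them passed the fit across all genes, and under which settings, is given as a description that supports nothing. The mice were males of the substrain BALB/c OlaHsd according to the methods and at postnatal week 11, in 4 groups of 6. The control group is labelled as untreated, and according to the methods it was given PBS. The duloxetine group received this serotonin and norepinephrine reuptake inhibitor by daily intraperitoneal injection. The R. flavefaciens group received the gut bacterium Ruminococcus flavefaciens by gavage, and the R. flavefaciens + duloxetine group received both. The strain, the sex and the age were common to all groups, so the samples say nothing about other strains, females or other ages. Each library came from tissue taken with a needle from slices of the frontal cortex of 1 mouse. Poly(A) RNA was sequenced, and the counts behind the table summed to between 12811413 and 15607343 reads per mouse. The median was 13591497 reads in the controls, 14536037 with duloxetine, 13943370 with R. flavefaciens and 14621655 with both. Depth was higher than in controls in the duloxetine group and in the R. flavefaciens + duloxetine group (p = 0.00433 in either comparison, by a two-sided exact permutation test of 6 against 6 mice), and its part in the results below was not tested.

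Collagens are triple-helical proteins of the extracellular matrix. Type IV collagen, made of the chains encoded by Col4a1 and Col4a2, forms the sheet of the basement membrane around every cerebral capillary, and collagen XV links basement membranes to the fibrils beneath them. The fibril-forming types I and III are made in the brain mostly by fibroblast-like cells of the meninges and of larger vessels. Type V joins type I fibrils, and type VI forms beaded microfilaments close to basement membranes. In bulk tissue of this kind, fewer cells of a type and less RNA per cell cannot be told apart.

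In GRCm38, Col15a1 (ENSMUSG00000028339.17) lies on the plus strand of chromosome 4 from 47208161 to 47313167, and Adam33 (ENSMUSG00000027318.17) on the minus strand of chromosome 2 from 131050591 to 131063814. Col4a1 (ENSMUSG00000031502.11; chromosome 8, 11198423 to 11312826, minus strand) and Col4a2 (ENSMUSG00000031503.13; chromosome 8, 11312805 to 11449287, plus strand) start head to head and overlap by 22 bases. Whether the reads were counted by strand is not stated, so reads within this overlap cannot be assigned to either gene with certainty. Col6a1 (ENSMUSG00000001119.7; 76708792 to 76726168) and Col6a2 (ENSMUSG00000020241.13; 76595762 to 76623630) are neighbours on the minus strand of chromosome 10. Col1a1 (ENSMUSG00000001506.10) is on chromosome 11 from 94936224 to 94953042 and Col1a2 (ENSMUSG00000029661.16) on chromosome 6 from 4504814 to 4541544, so the chains of type I collagen are encoded on different chromosomes. Col3a1 (ENSMUSG00000026043.18) is on chromosome 1 from 45311538 to 45349706, and Col5a1 (ENSMUSG00000026837.15) on chromosome 2 from 27886425 to 28039514, all 4 on the plus strand. All 10 genes are protein-coding.

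A RefSeq promoter window of the build GRCm38.p6, from 250 bases before to 50 after a start site, was found for 8 of the 10 genes, and none was used for Col1a1 and Adam33. Those of 4 genes are printed, because Col15a1, Col4a1 and Col4a2 varied together from mouse to mouse, as described below, while Col1a2 varied with another set of genes. They are chr4:47207762-47208061 for Col15a1 (plus strand), chr8:11312777-11313076 for Col4a1 (minus strand), chr8:11312555-11312854 for Col4a2 (plus strand) and chr6:4505368-4505667 for Col1a2 (plus strand). Capitals mark CCAAT boxes (CCAAT or ATTGG) and GC boxes (GGGCGG or CCGCCC), searched on both strands; in these windows no match of one overlapped a match of the other.
Col15a1: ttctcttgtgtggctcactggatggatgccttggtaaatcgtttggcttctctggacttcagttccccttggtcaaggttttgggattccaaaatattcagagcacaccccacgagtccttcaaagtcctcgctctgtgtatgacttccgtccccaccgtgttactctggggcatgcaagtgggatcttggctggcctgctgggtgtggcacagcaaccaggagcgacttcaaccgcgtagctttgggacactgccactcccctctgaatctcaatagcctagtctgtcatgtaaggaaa
Col4a1: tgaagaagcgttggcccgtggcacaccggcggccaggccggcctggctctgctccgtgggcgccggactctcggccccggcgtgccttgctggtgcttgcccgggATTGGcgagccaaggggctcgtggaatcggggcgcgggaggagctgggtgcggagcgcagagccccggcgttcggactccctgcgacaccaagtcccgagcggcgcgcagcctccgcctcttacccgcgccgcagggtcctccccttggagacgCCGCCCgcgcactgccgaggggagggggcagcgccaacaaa
Col4a2: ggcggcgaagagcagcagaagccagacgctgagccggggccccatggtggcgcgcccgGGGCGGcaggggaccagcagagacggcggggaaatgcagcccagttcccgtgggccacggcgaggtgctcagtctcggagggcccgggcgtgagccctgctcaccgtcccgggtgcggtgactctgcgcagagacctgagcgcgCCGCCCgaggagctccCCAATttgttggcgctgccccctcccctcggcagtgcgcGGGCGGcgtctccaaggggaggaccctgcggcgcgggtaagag
Col1a2: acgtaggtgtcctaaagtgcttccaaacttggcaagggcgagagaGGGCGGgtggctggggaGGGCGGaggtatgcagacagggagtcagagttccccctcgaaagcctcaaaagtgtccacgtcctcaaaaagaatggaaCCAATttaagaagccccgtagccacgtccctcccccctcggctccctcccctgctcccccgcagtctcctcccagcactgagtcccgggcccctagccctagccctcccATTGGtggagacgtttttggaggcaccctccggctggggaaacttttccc
The Col4a1 and Col4a2 windows share 78 bases. The Col4a1 window held 1 CCAAT box and 1 GC box, the Col4a2 window 1 CCAAT box and 3 GC boxes, and the Col1a2 window 2 of each, whereas the Col15a1 window held neither. The GC box of the Col4a1 window lies in the shared bases. It is the same site, read from the other strand, as the last GC box printed for Col4a2. Of 32851 mouse promoter windows of the same length, 37.4% held a CCAAT box and 35.7% a GC box, so these letters are common. The Col15a1 window ends 100 bases before the gene start given in the deposited table, and the Col1a2 window begins 554 bases after the start given there for Col1a2, since RefSeq places both starts elsewhere. The starts used in this tissue were not examined. GC content was 74.0% in the Col4a1 window and 73.7% in the Col4a2 window, against 52.3% for Col15a1. These matches are descriptions of the reference sequence, and no binding was measured.

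The 6 markers of cortical neurons summed to a mean of 72674 normalized counts in the controls and 71522 in the R. flavefaciens + duloxetine group, led by Snap25. All 15 markers of fibroblast-like cells were in the table, led per length by Igfbp2, as were all 16 endothelial and all 16 pericyte and smooth muscle markers, led by Cldn5 and Vtn. Some mice stood apart in these lists. Control mouse 2_2 had 2490 summed normalized counts of fibroblast-like markers, against 1277 to 1500 in the other 5 controls. The highest sums in the duloxetine and R. flavefaciens groups were in mouse 5_1 (2827) and mouse 7_2 (2472), and these mice and mouse 2_2 had the lowest oligodendrocyte sums of their groups (14260, 11295 and 13272). Mouse 8_4, given R. flavefaciens, had 791 summed counts of the 3 choroid plexus markers in the table (Ttr, Kl and Clic6), against 25.5 to 108 in the other 5 mice of its group. The other 5 choroid plexus markers of the list (Folr1, Kcnj13, Aqp1, Otx2 and Sostdc1) had no row in the table. Some values without single mice are given beside the results.

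Levels per length, in normalized counts per kb of exonic sequence over all 24 mice, spanned the range from 142 for Col6a1 to 5.56 for Adam33. Below Col6a1 came Col4a2 (118) and Col4a1 (79.2), followed by Col6a2 (30.6), Col1a2 (27.3), Col1a1 (25.7) and Col5a1 (17.8). Col3a1 (7.26) and Col15a1 (6.95) were near the bottom. Neighbours in this order overlapped within 1 SD over mice, except between Col4a2 and Col4a1, between Col4a1 and Col6a2 and between Col5a1 and Col3a1. Among the 30 other collagen genes in the table the highest per length was Col25a1, a membrane collagen of neurons, at 79.0 normalized counts per kb, about the level of Col4a1. Col15a1 rested on 24 to 80 reads per mouse and Adam33 on 16 to 48, whereas Col4a2 rested on 584 to 1068, so counting error alone is larger for the former genes.

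Col15a1, the gene of a non-fibrillar collagen of the basement membrane zone, was highest in the R. flavefaciens + duloxetine group. Its normalized count was 39.6 ± 14.6 (SD, n = 6) in the controls, where the lowest mouse had 23.8, the median was 37.2 and the highest had 66.8. With duloxetine it was 40.8 ± 6.42 (lowest 31.8, median 40.2, highest 48.7). With R. flavefaciens it was 32.2 ± 6.88 (lowest 25.2, median 31.9, highest 40.1). The 6 mice given both had 64.0 ± 7.42 (lowest 57.3, median 62.7, highest 77.5), and each of them lay above every mouse of the duloxetine group and every mouse of the R. flavefaciens group. Against the controls, all 6 lay above the control mean, and the groups overlapped only through mouse 2_2, the control with 66.8. The log2 difference of the group given both was 0.99 (SE 0.176) against R. flavefaciens, 0.74 (SE 0.176) against control and 0.65 (SE 0.176) against duloxetine, all on the log2(normalized count + 1) scale. Either treatment alone differed from control by less: 0.10 for duloxetine and -0.25 for R. flavefaciens, each with the same SE. Both moved with single control mice: without mouse 2_2 they were 0.26 and -0.08, and without mouse 2_1 they were -0.03 and -0.37. The interaction, that is, how far the difference made by duloxetine changed when R. flavefaciens was present, was 0.89 (SE 0.249). Without mouse 2_2 the log2 difference of both treatments against control was 0.90 (SE 0.156), and without mouse 2_1 it was 0.61. That against R. flavefaciens was 1.06 (SE 0.183) without mouse 8_4 and 0.93 without mouse 9_2. The interaction was 0.73 without mouse 2_2 and 1.02 without mouse 2_1.

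**Figure D1:**
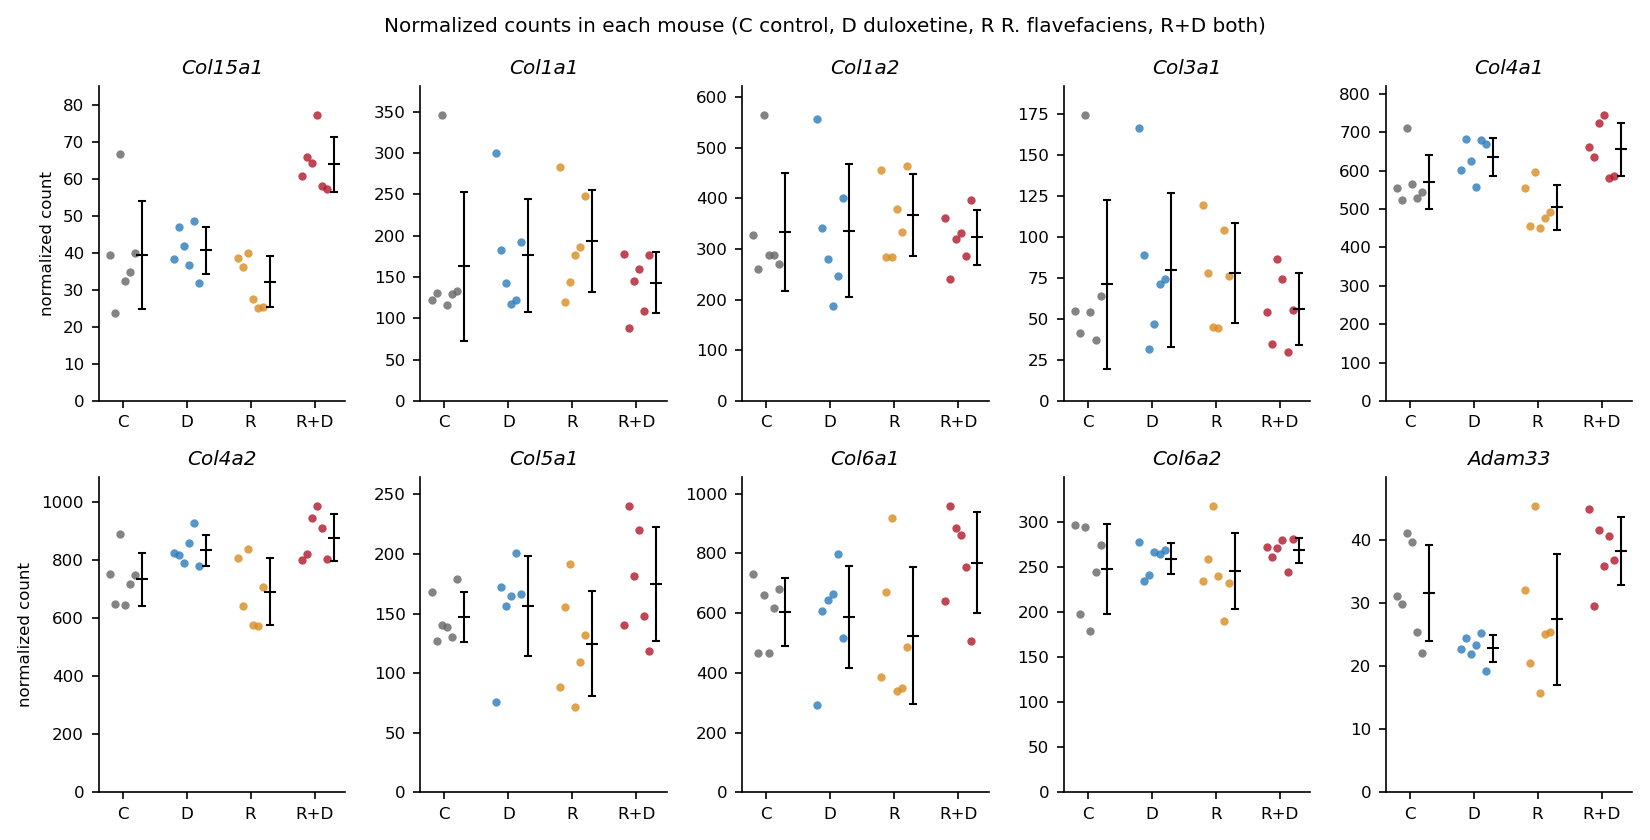
Normalized count (y axis, from 0) of each of the 10 genes in every mouse, by group (C control, D duloxetine, R R. flavefaciens, R+D both; 6 mice each); black marks are means with SD. The 6 mice given both treatments lie above all duloxetine and all R. flavefaciens mice for Col15a1, and 1 control mouse is far above the other 5 for Col1a1, Col1a2 and Col3a1.

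The means of the type IV chains followed the same order of groups as Col15a1, lowest with R. flavefaciens and highest with both treatments. This order was not particular to them: the means of Col5a1 and Col6a2 had it as well. Col6a1 was also lowest with R. flavefaciens and highest with both. Col4a1 was 571 ± 70.2 normalized counts in controls (522 to 711, median 549), 635 ± 50.4 with duloxetine (557 to 681, median 647), 505 ± 58.6 with R. flavefaciens (452 to 597, median 484) and 655 ± 69.2 with both (581 to 746, median 648). Of the 6 mice given both, 4 lay above every R. flavefaciens mouse and 2 above every control, so the groups overlapped. Col4a2 was 733 ± 89.8 (646 to 889, median 732), 832 ± 53.9 (778 to 927, median 820), 691 ± 114 (573 to 838, median 675) and 876 ± 79.7 (799 to 985, median 864) in the same order of groups. Here 3 of the 6 mice given both lay above every R. flavefaciens mouse and 3 above every control. The log2 difference of both treatments against R. flavefaciens was 0.38 (SE 0.0813) for Col4a1 and 0.35 (SE 0.0883) for Col4a2. Against duloxetine the differences were 0.04 and 0.07 with the same SEs, and against control 0.20 and 0.26. For duloxetine against control they were 0.16 and 0.19, against 0.10 for Col15a1. Without single mice the difference against duloxetine ranged from 0.00 (without mouse 6_1) to 0.08 (without 12_3) for Col4a1 and from 0.04 (without 12_2) to 0.10 (without 6_2) for Col4a2.

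Col6a1, of type VI collagen, and Col5a1, of type V, varied more between mice, relative to their means, than the type IV chains. Col6a1 was 603 ± 112 normalized counts in controls (466 to 730), 587 ± 171 with duloxetine (292 to 799), 524 ± 230 with R. flavefaciens (338 to 920) and 768 ± 169 with both (507 to 958). The medians were 638, 626, 435 and 808, and the range of every group overlapped that of every other group. The log2 difference of both against R. flavefaciens was 0.62 (SE 0.223). Without mouse 8_4, the highest of the R. flavefaciens group, it was 0.80 (SE 0.207), and without mouse 9_1, the lowest, it was 0.51. Col5a1, a minor chain of type I fibrils, was 147 ± 21.2, 156 ± 42.1, 125 ± 44.3 and 175 ± 47.8, with a difference of 0.51 (SE 0.215) for both against R. flavefaciens. Its values ran from 72.0 to 240 over all mice, and its groups overlapped. The difference of Col5a1 was 0.37 without mouse 9_1 and 0.65 without mouse 8_4. Col6a2, the partner chain of Col6a1, was 248 ± 49.7, 259 ± 17.2, 245 ± 41.9 and 268 ± 13.7. Its difference for both against R. flavefaciens was 0.14 (SE 0.109), which ranged from 0.07 without mouse 9_2 to 0.22 without mouse 8_4.

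Col1a1, Col1a2 and Col3a1 had lower means with both treatments than in any other group, but their medians were not below those of the controls. The medians with both and in controls were 153 and 130 for Col1a1, 326 and 289 for Col1a2 and 54.8 and 54.7 for Col3a1. For Col1a2 the median with duloxetine, 311, was also below that with both. Col1a1 and Col1a2, the chains of type I collagen, were 143 ± 36.9 and 323 ± 54.8 normalized counts in the mice given both treatments, against 193 ± 62.1 and 367 ± 80.7 with R. flavefaciens, 176 ± 68.3 and 336 ± 132 with duloxetine and 163 ± 90.1 and 334 ± 116 in controls. Col3a1, the chain of type III collagen, was 55.9 ± 22.0 with both, 78.1 ± 30.5 with R. flavefaciens, 79.9 ± 47.2 with duloxetine and 71.2 ± 51.7 in controls. The log2 differences of both against R. flavefaciens were -0.42 (SE 0.253) for Col1a1, -0.17 (SE 0.203) for Col1a2 and -0.48 (SE 0.356) for Col3a1, and the groups overlapped for all 3 genes. Without mouse 7_2 they were -0.29 (SE 0.258), -0.10 (SE 0.212) and -0.33 (SE 0.369). Against duloxetine the differences were -0.27, 0.01 and -0.41 in the same order of genes, and without mouse 5_1 they were -0.10, 0.18 and -0.17. In the controls 1 mouse set the spread: mouse 2_2 had 347 counts of Col1a1 against 116 to 134 in the other 5, and 175 of Col3a1 against 37.1 to 64.2. Without that mouse the differences of both treatments against control changed from -0.11 to 0.13 for Col1a1, from -0.01 to 0.15 for Col1a2 and from -0.22 to 0.08 for Col3a1, so that their sign rested on 1 library. Mouse 2_2 was the mouse with the high sum of fibroblast-like markers, and the part of these markers in its collagen values was not tested.

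Adam33, a membrane-bound metalloprotease of the ADAM family expressed in mesenchymal cells, had its lowest mean and median with duloxetine alone. It was 31.5 ± 7.59 normalized counts in controls (22.1 to 41.1, median 30.5), 22.9 ± 2.14 with duloxetine (19.3 to 25.3, median 23.1), 27.4 ± 10.4 with R. flavefaciens (15.8 to 45.4, median 25.3) and 38.2 ± 5.39 with both (29.5 to 45.0, median 38.8). All 6 mice given both lay above all 6 given duloxetine, with a log2 difference of 0.71 (SE 0.189). The other groups overlapped with the mice given both, and the difference from control was 0.29 (SE 0.189). The difference between duloxetine and control was -0.42 (SE 0.189), and the interaction was 0.95 (SE 0.267).

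Read against all genes, the comparisons differed in how many genes passed an adjusted p of 0.05 (limma, Benjamini-Hochberg over 14974 genes). For both treatments against R. flavefaciens 334 genes passed, or 2.23%, and 3 of the 10 genes described here were among them: Col15a1, Col4a1 and Col4a2, all higher with both. The 334 became 47 without mouse 11_3 and 577 without mouse 8_4 in limma, and DESeq2 called 610. The call of Col4a2 was lost without mouse 8_3, 9_1, 9_2, 11_3, 11_4, 12_2 or 12_3. For both against control 15 genes passed (0.10%), for R. flavefaciens against control 4 (0.0267%), and none of the 10 was among them. DESeq2 called 217 and 497 genes in these comparisons, and leaving out single mice gave 5 (without mouse 2_1) to 154 (without 12_4) and 0 (among others without 1_1) to 616 (without 9_2) in limma. Col15a1 joined the genes that passed for both against control when mouse 2_2, 9_3 or 12_4 was left out. For duloxetine against control, for both against duloxetine and for the interaction, 0 of 14974 genes passed in limma (0%), with 573, 883 and 1128 genes at an unadjusted p under 0.05. DESeq2 called 1, 1 and 0 genes in these comparisons and edgeR 0, 0 and 0. Groups without any overlap were found for 0.254% of all genes between both and duloxetine, where Col15a1 and Adam33 were 2 of them, and for 1.44% between both and R. flavefaciens, where Col15a1 was the only one of the 10. The shares were 0.334% for duloxetine against control, 1.62% for R. flavefaciens against control and 2.04% for both against control, with none of the 10 genes. Because the genes were chosen with values of these mice known, nothing is read from these counts or from how they held when mice were left out. The comparisons share groups: control enters 3 of the 5 single comparisons, and the R. flavefaciens + duloxetine group also enters 3.

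**Figure D2:**
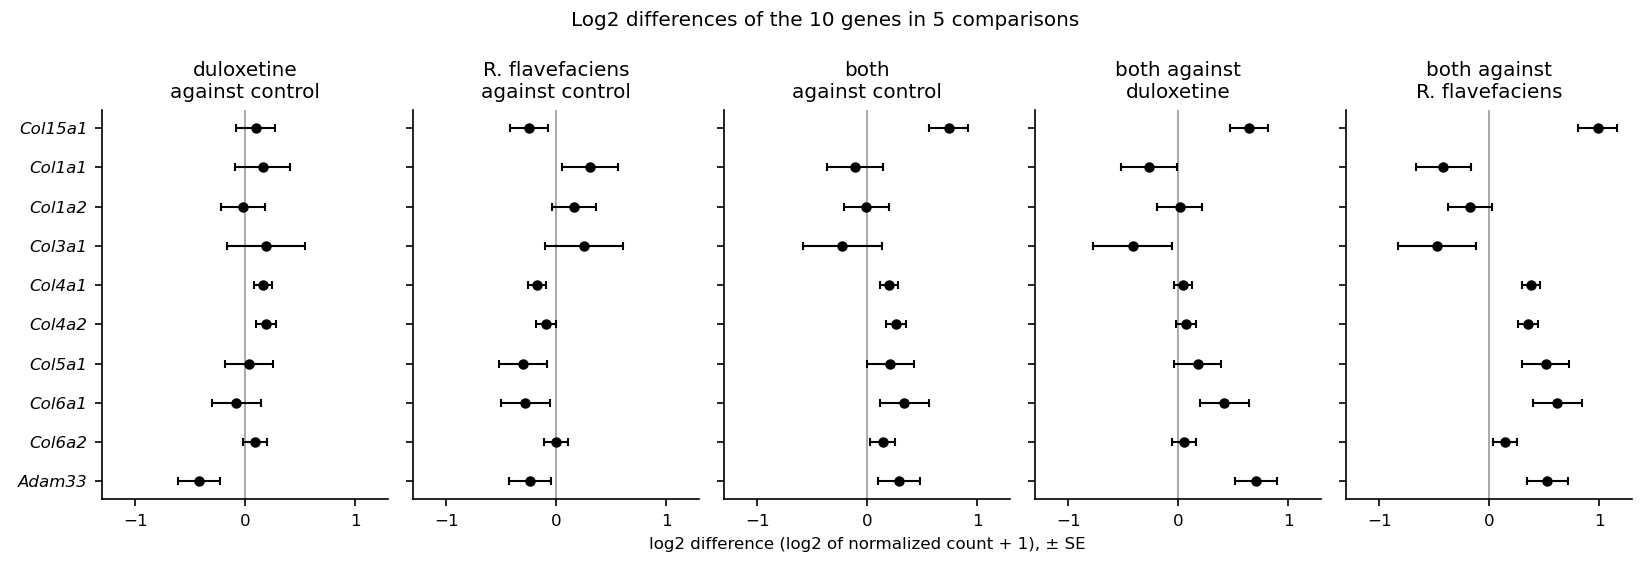
Log2 difference (x axis, log2 of normalized count + 1; points with SE) of the 10 genes in 5 comparisons of single groups. Col15a1 lies farthest to the right in the comparisons of both treatments with control and with R. flavefaciens, at 0.74 and 0.99, and Col1a1, Col1a2 and Col3a1 lie left of 0 in the last.

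How the genes varied from mouse to mouse inside a group was examined after the mean of each group was taken off, so that group differences did not enter. Of 45 pairs of the 10 genes, 14 passed an adjusted p of 0.05 for Pearson's r over the 24 mice (permutation within groups, 100000 draws, two-sided), 11 of them positive and 3 negative, and 9 passed by Spearman's rho. Whether such covariation played a part in choosing the genes is not recorded. All mice share 1 normalization, and a mouse high in 1 cell type would move all its genes at once.

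Col15a1 varied with the type IV chains. Its r was 0.74 with Col4a2 (rho 0.70, p = 0.00026 and 0.00101, adjusted p = 0.00390 and 0.0151) and 0.70 with Col4a1 (rho 0.60, p = 0.00074 and 0.00367, adjusted p = 0.00637 and 0.0305). Without mice 2_1 and 2_2, the lowest and the highest control for Col15a1, r was 0.68 and 0.58. Col15a1 also varied with Col6a1 (r 0.51, rho 0.61, adjusted p = 0.0342 and 0.0305 by permutation; r 0.59 without the same mice). With Col6a2 it had an r of 0.60 that did not pass (adjusted p = 0.0517 by permutation; rho 0.49, adjusted p = 0.102; r 0.46 without the same mice). The relations with the type I chains did not pass: r was 0.26 with Col1a1 and 0.21 with Col1a2, and without mice 2_1 and 2_2 these became -0.19 and -0.24. Col4a1 and Col4a2, which start head to head, had an r of 0.71 (adjusted p = 0.00637 by permutation), but rho was 0.52 (adjusted p = 0.0645) and r fell to 0.52 without mice 2_2 and 8_4. Col4a2 passed with Col6a1 by r (0.55, adjusted p = 0.0471 by permutation) but not by rho (0.54, adjusted p = 0.0639), and r was 0.43 without mice 2_2 and 8_4.

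The genes of type I and type III collagen also varied together. Col1a1 and Col1a2 had an r of 0.93 (rho 0.92, p = 1e-05, the smallest the draws can give, adjusted p = 0.000225; r 0.87 without mice 2_2 and 5_1). Col3a1 varied with both, with an r of 0.77 with Col1a1 and 0.71 with Col1a2 (adjusted p = 0.00517 and 0.00996 by permutation), which became 0.54 and 0.44 without mice 2_2 and 5_1. Col5a1, whose chain joins type I fibrils, had negative correlations with their genes: its r was -0.52 with Col1a1 and -0.55 with Col1a2 (adjusted p = 0.0412 and 0.0342 by permutation; adjusted p for rho 0.0645 for both). Instead Col5a1 varied with Col6a1, with an r of 0.91 (rho 0.87, p = 1e-05, adjusted p = 0.000225; r 0.86 without mice 5_1 and 9_1). Col6a1 in turn ran against Col1a2 (r -0.53, rho -0.61, adjusted p = 0.0471 and 0.0305 by permutation), and against Col1a1 by rho alone (-0.60, adjusted p = 0.0310 by permutation; r -0.50, adjusted p = 0.0517). Col6a2 passed with Col4a2 (r 0.62, adjusted p = 0.0342 by permutation), but not by rho (0.45, adjusted p = 0.126), and r was 0.42 without mice 2_2 and 8_4. With Col6a1 it had an r of 0.47 (adjusted p = 0.0517 by permutation), which was 0.50 without mice 5_1 and 8_4. Adam33 passed with Col4a1 only (r 0.60, adjusted p = 0.0270 by permutation), but not by rho (0.52, adjusted p = 0.0639), and r was 0.36 without mice 2_2 and 8_4.

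**Figure D3:**
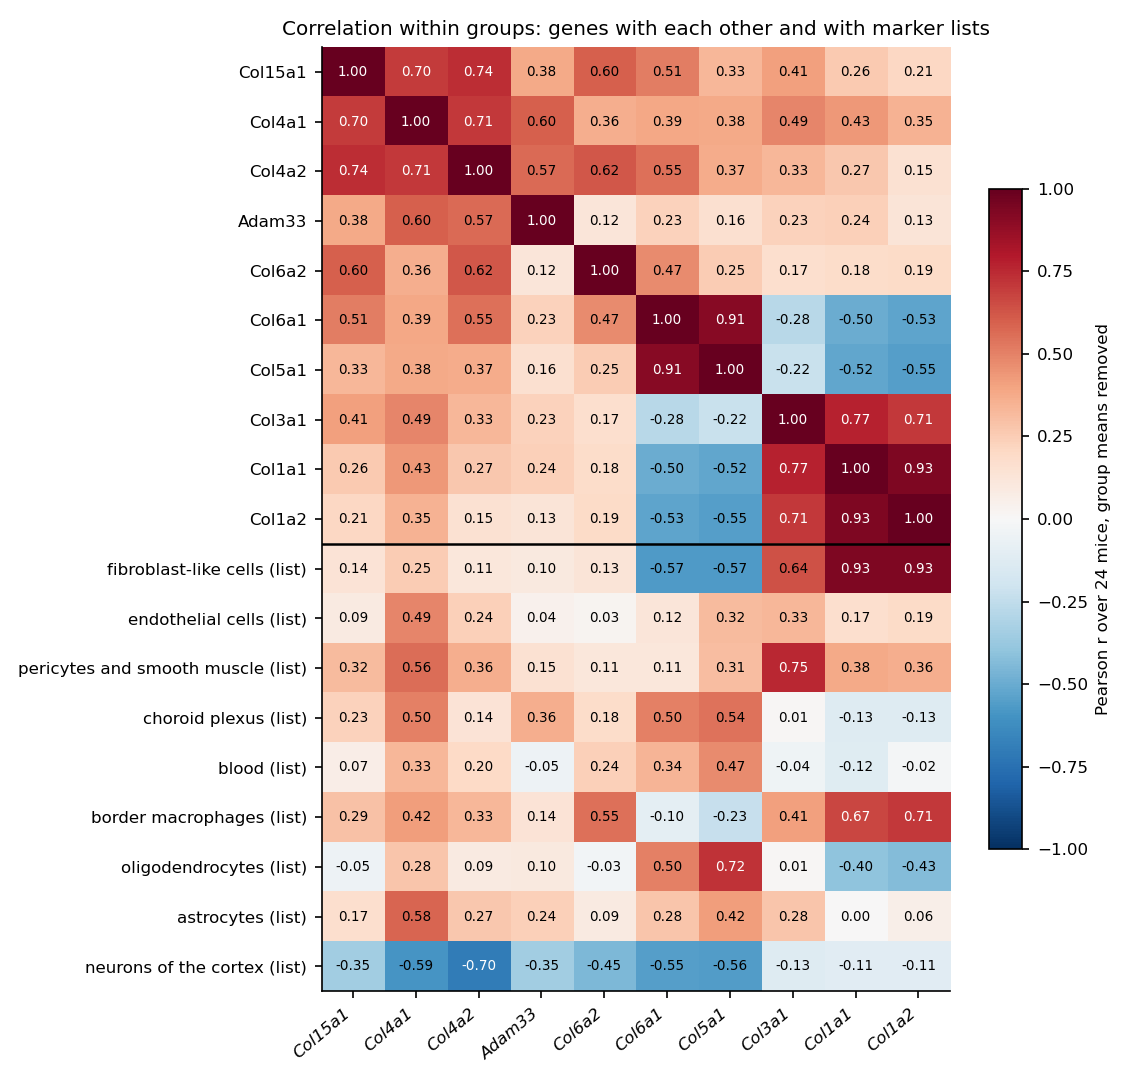
Pearson r over 24 mice, group means removed, between the 10 genes (upper block) and between each gene and the mean log2 value of 9 marker lists (lower block). Col1a1, Col1a2 and Col3a1 form a block that includes the list of fibroblast-like cells, and Col5a1 and Col6a1 form a pair with negative r to that list.

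Against marker lists of cell types, 6 of 60 relations passed. The mean log2 value of the 15 markers of fibroblast-like cells had an r of 0.93 with Col1a1 and 0.93 with Col1a2 (p = 1e-05 by permutation, adjusted p = 0.0003 for each; 0.88 and 0.87 without mice 2_2 and 5_1). With Col3a1 r was 0.64 (adjusted p = 0.0446 by permutation; for rho 0.0911), which became 0.34 without these mice. Col3a1 also varied with the list of pericytes and smooth muscle (r 0.75, p = 6e-05 by permutation, adjusted p = 0.0012). Border macrophages, the resident macrophages of meninges and vessels, varied with Col1a1 (r 0.67) and Col1a2 (r 0.71; adjusted p = 0.0287 and 0.0178 by permutation). Col15a1 passed with none of the 6 lists. Its r was 0.14 with fibroblast-like cells, 0.09 with endothelial cells, 0.32 with pericytes and smooth muscle, 0.23 with choroid plexus, 0.07 with blood and 0.29 with border macrophages. Without the 2 most distant mice of each relation these became -0.23, -0.07, 0.21, 0.27, 0.27 and -0.08 in the same order. Col5a1 had an r of -0.57 with fibroblast-like cells (p = 0.00679 by permutation, adjusted p = 0.0582; adjusted p for rho 0.0911), and Col6a1 also had -0.57 (p = 0.00878 by permutation, adjusted p = 0.0615), with a rho of -0.64 that passed (p = 0.00308 by permutation, adjusted p = 0.0370). Without mice 2_2 and 5_1 the r of Col6a1 was -0.56.

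Lists of oligodendrocytes, astrocytes and cortical neurons were added after the values were seen, and 4 of 30 relations passed. Col5a1 had an r of 0.72 with the 7 oligodendrocyte markers (rho 0.70, p = 0.00039 by permutation, adjusted p = 0.0117; r 0.62 without mice 9_1 and 12_4), whereas Col6a1 had 0.50 (adjusted p = 0.120). Col4a1 varied with astrocyte markers (r 0.58, adjusted p = 0.0419 by permutation). The type IV chains ran against the neuron list, with an r of -0.59 for Col4a1 and -0.70 for Col4a2 (adjusted p = 0.0470 and 0.0310 by permutation; for rho 0.0603 and 0.0198). For Col15a1 r was -0.05 with oligodendrocytes, 0.17 with astrocytes and -0.35 with neurons, none past the threshold.

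**Figure D4:**
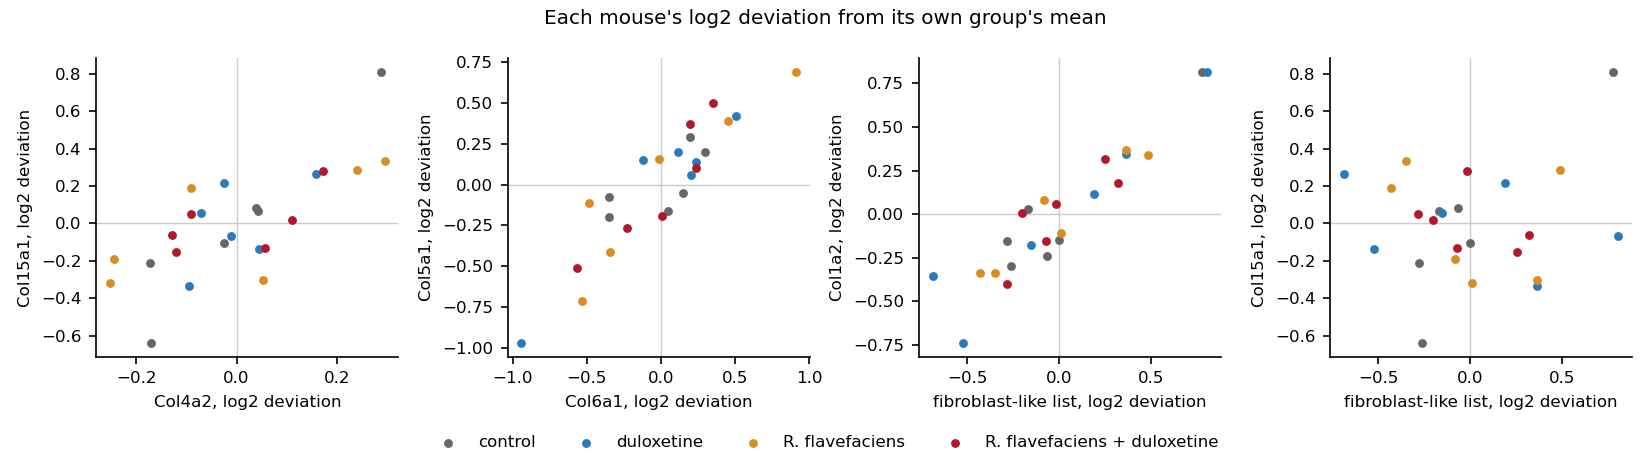
Each mouse's log2 deviation from the mean of its own group, for 4 pairs of measures, coloured by group (24 mice). Col15a1 rises with Col4a2 (r 0.74), Col5a1 with Col6a1 (r 0.91) and Col1a2 with the list of fibroblast-like cells (r 0.93), and Col15a1 is shown against that list (r 0.14, and -0.23 without mice 2_2 and 5_1).

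When the fibroblast-like list entered the fit as a covariate, an alternative added after the values were seen, the log2 difference of both treatments against R. flavefaciens was 1.03 (SE 0.186) for Col15a1, 0.41 (SE 0.0841) for Col4a1 and 0.37 (SE 0.0933) for Col4a2. For Col1a1 it was -0.04 (SE 0.112) in place of -0.42, for Col1a2 0.14 (SE 0.0860) in place of -0.17 and for Col3a1 -0.11 (SE 0.295) in place of -0.48. Col5a1 and Col6a1 came to 0.32 (SE 0.191) in place of 0.51 and 0.41 (SE 0.196) in place of 0.62. Col6a2 was 0.17 (SE 0.115) and Adam33 0.56 (SE 0.201), against 0.14 and 0.53 without the covariate. Within groups the fibroblast-like list had an r of 0.93 with Col1a1 and Col1a2 and 0.14 with Col15a1. Its markers had a median difference of -0.30 in this comparison. The fit with this list was thus bound to move Col1a1 and Col1a2 and could move Col15a1 little, so nothing is read from it. With the oligodendrocyte list as covariate the difference was that of the fit without it for every gene described here, 0.99 (SE 0.177) for Col15a1. The median difference of the oligodendrocyte markers themselves was -0.02 in this comparison, so this fit could move little and nothing is read from it. The SE of Col5a1 was 0.153 in place of 0.215. The summed fibroblast-like markers were 1553 in controls, 1686 with duloxetine, 1881 with R. flavefaciens and 1471 with both. Of the 15 markers, 14 had a negative log2 difference for both against R. flavefaciens, with a median of -0.30, and none passed in limma (4 at an unadjusted p under 0.05, as were 19.7% of all genes). Summed endothelial markers were 5949, 6241, 6418 and 6675 in the same order of groups, and none of the 16 passed for both against R. flavefaciens in limma (3 at an unadjusted p under 0.05). The 5 hemoglobin and red cell genes summed to 349, 462, 598 and 633 counts, all 5 with a positive difference for both against control (median 0.78, none past the threshold in limma, 5 at an unadjusted p under 0.05, as were 16.8% of all genes). For R. flavefaciens against control all 5 were also positive (median 0.75, none past the threshold in limma, 4 at an unadjusted p under 0.05, as were 19.6% of all genes), and for both against R. flavefaciens the median was -0.02. The part of these cell types in the group differences was not tested, and only the fibroblast-like and oligodendrocyte lists entered a fit as covariates.

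Over the 14974 genes tested, genes whose within-group pattern was among the most like that of Col15a1 by Pearson's r over 24 mice were Gm37310 (0.76), Gm9821 (0.75), Col4a2 (0.74), Greb1 (0.74), Itga2b (0.73), Slc22a4 (0.71) and Myo19 (0.70). Col4a2 was thus the third most alike gene of the table, and Col4a1 the tenth. Col6a2 ranked 49, Col6a1 198, Col3a1 618, Adam33 840, Col5a1 1257, Col1a1 1949 and Col1a2 2783. Greb1 is an estrogen-regulated gene, and Myo19 encodes a mitochondrial myosin. The first 2 names are predicted genes. Gm37310, at a mean of 10.4 normalized counts, was close to the lowest level tested.

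The lists held 196 other genes that were tested, those of the collagen system and the markers of cell types together, of which 5 passed for both treatments against R. flavefaciens (2.55%, against 2.23% of all genes) and none in the other 5 comparisons. The share was thus close to that of all genes. The lists were also chosen with earlier results of these data known, so the adjusted p-values of their genes are given as a description. Among 29 other collagen genes tested, 1 passed: Col19a1, a collagen of basement membrane zones made by some neurons, was 320 ± 36.7 normalized counts with both and 224 ± 40.3 with R. flavefaciens, a log2 difference of 0.53 (SE 0.119, limma adjusted p = 0.0216). Of the 29, 17 had a positive and 12 a negative difference, with a median of 0.12, against 0.00 for all genes. Of 17 basement membrane genes other than collagens, 1 passed, the laminin chain gene Lama3. It was 0.55 higher with both than with R. flavefaciens (SE 0.122, limma adjusted p = 0.0198), at 177 ± 29.4 against 121 ± 26.9. Sparc, a collagen-binding matrix protein and the most abundant of that list per length, differed by 0.02 (SE 0.0918).

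Of the 26 tested genes of collagen synthesis, 1 passed, and it was lower with both than with R. flavefaciens. Serpinh1, which encodes the collagen chaperone of the endoplasmic reticulum, differed by -0.59 on the log2 scale (SE 0.135, limma adjusted p = 0.0229). It was 264 ± 25.2 with R. flavefaciens and 177 ± 33.0 with both, and these groups did not overlap, as for 1.44% of all genes. It was 197 ± 34.0 in controls. P4hb, a subunit of the prolyl hydroxylase that stabilizes the triple helix and the most abundant gene of the list per length, had a difference of -0.12 (SE 0.0445). Among 9 collagen receptors 1 passed, Itga1, the integrin chain that binds type IV collagen. It was 0.48 higher with both than with R. flavefaciens (SE 0.118, limma adjusted p = 0.0310), at 208 ± 31.5 against 149 ± 20.4. These groups did not overlap for Itga1, as for 1.44% of all genes. The other receptors, led by Itgb1 at -0.01 (SE 0.0557), did not pass. Among 15 pericyte and smooth muscle genes tested, 1 passed, the pericyte gene Atp13a5. It was 0.47 higher with both than with R. flavefaciens (SE 0.106, limma adjusted p = 0.0229), at 172 ± 36.8 against 122 ± 8.97. Of these 15, 8 had a positive and 7 a negative difference, with a median of 0.03. The counts were 6 and 3 for the receptors (median 0.10), 11 and 15 for collagen synthesis (median -0.01) and 10 and 7 for the basement membrane genes (median 0.02). Without mouse 11_3, given both treatments, 47 genes of the whole table passed in place of 334, and none of these 5 list genes was among them, with limma adjusted p-values from 0.0545 (Lama3) to 0.0892 (Itga1) and differences from -0.52 (Serpinh1) to 0.56 (Lama3). Atp13a5 also missed the threshold without mouse 9_1 or 12_2 (limma adjusted p = 0.0539 and 0.0538), and Itga1 without mouse 9_3, 11_4 or 12_2 (limma adjusted p = 0.0710, 0.0527 and 0.0679).

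None of 11 matrix protease and inhibitor genes (led by Timp2, at -0.05), 11 other ADAM genes (led by Adam11, at 0.01) or 16 genes of the TGF-beta pathway (led by Smad3, at -0.15) passed in limma for both against R. flavefaciens, with 1 gene of each list at an unadjusted p under 0.05. Their median log2 differences were -0.03, 0.05 and -0.01. Adam8, at 0.53, was the only other ADAM gene as far from 0 as Adam33, and it did not pass; it was named after its value was seen.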

How the data were processed

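According to the submitters' processing notes, the authors used TopHat2 2.1.0 and Bowtie2 2.2.6 for mapping and DESeq2 1.18.1. The notes name the build mm9 and the methods GRCm38.p5; the positions of all 10 genes, and of 14253 of 15456 genes, were those of GENCODE vM21 on GRCm38. The deposited signal values are counts normalized with DESeq2 by the authors. The counting program, its strand setting and the gene filter are not given in the sources used here. At least 99.92% of the values of each mouse were whole multiples of 1 step, within 0.0051, which gave back the reads. Every pair of mice within a group differed beyond counting noise.

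Differences were fitted on log2(normalized count + 1) with limma 3.58.1 under R 4.3.3 and a trended prior. The 14974 genes whose mean reached 10 entered, with 4 groups in 1 fit, two-sided tests and Benjamini-Hochberg adjustment in each of 6 comparisons. Alternatives were a pseudocount of 0.1, no filter, quantile normalization, edgeR 4.0.16 and DESeq2 1.42.0 on the recovered reads, the first number of each mouse's label as a random block, leaving out each of the 24 mice, and, added after the values were seen, 2 marker lists as covariates. The fits were tested on simulated data. Correlations used 100000 permutations within groups (Python 3.11.15, scipy 1.17.1). List genes are named where an adjusted p was under 0.05 or where most abundant per length, and the 8 genes most like Col15a1 by r, of which 1 is not reported here. The 10 genes and the lists were chosen with earlier results of these data known.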

Additional observations from a re-analysis of the deposited data

Results flagged for a closer look

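Of 76 sets of 6 mice examined (10 genes and 9 summed marker lists in 4 groups), 12 held a mouse whose gap to the nearest other was beyond Dixon's limit for 6 samples, where chance gives about 1 in 20. Control mouse 2_2 gave 5 of them. Its normalized counts were 347 for Col1a1 (the other controls 116 to 134), 566 for Col1a2 (260 to 327), 175 for Col3a1 (37.1 to 64.2) and 711 for Col4a1 (522 to 564), and its summed fibroblast-like markers were 2490 (1277 to 1500). Mouse 5_1 of the duloxetine group had 75.9 normalized counts of Col5a1, against 156 to 201 in the other 5 mice.

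The other distant values were sums of marker lists. Mouse 9_3 of the R. flavefaciens group had 5112 counts of pericyte and smooth muscle markers (the others 3671 to 4196). Choroid plexus markers summed to 152 in mouse 5_3 given duloxetine (34.6 to 63.1) and to 791 in mouse 8_4 given R. flavefaciens (25.5 to 108). Red blood cell genes summed to 984 in mouse 6_3 given duloxetine (289 to 482) and to 988 in mouse 8_4 (418 to 627). Border macrophage markers summed to 171 in mouse 10_2 given both treatments (113 to 128).

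Adam33 values with duloxetine lay on opposite sides of their reference: all 6 mice given duloxetine alone lay below the control mean, and all 6 given both lay above the mean of the R. flavefaciens group. Only the 10 genes were searched for such a pattern. Its share among all genes was not computed, so nothing is read from it. The interaction was 0.95 on the log2 scale, and 0 of 14974 genes passed for the interaction in limma (1128 at an unadjusted p under 0.05; DESeq2 and edgeR 0).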

How the results depend on the processing

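Because the 10 genes were chosen with values of these mice known, their calls under other settings are no sign of stability. Col15a1, Col4a1 and Col4a2 were called for both treatments against R. flavefaciens under the 8 other settings, and 2 to 5 of the 10 were called when single mice were left out, with 5 (Col6a1 and Adam33 in addition) without mouse 8_4. For both against control, 1 gene, Col15a1, was called with DESeq2, with the first label number as a block and with the oligodendrocyte covariate, and 0 to 1 when single mice were left out. No log2 difference reversed among those called. All genes called for both against R. flavefaciens numbered 610 with DESeq2, 533 with the label block, 666 with the oligodendrocyte covariate and 190 with the fibroblast-like covariate, and 47 to 577 without single mice. For both against control they numbered 217, 59 and 106 under the first 3 of these settings, and 5 to 154 without single mice. For R. flavefaciens against control they numbered 497, 221 and 267, then 0 with the fibroblast-like covariate, and 0 to 616 without single mice. DESeq2 called 1 gene for duloxetine against control and 1 for both against duloxetine, where 0 to 2 were called without single mice. The causes were not tested. The label block had a consensus correlation of -0.045. Every first label number occurred in a single group, and the labels do not say what it stands for. A negative correlation in such a block narrows the SEs of group differences, so nothing is read from the counts with the label block. Of the 5 list genes called, Serpinh1 (adjusted p = 0.0550) and Itga1 (adjusted p = 0.0565) missed the threshold in limma with the fibroblast-like covariate. The difference of Serpinh1 was then -0.49, in place of -0.59. That of Itga1 lay between 0.47 and 0.49 under the 8 other settings, against 0.48 in the main fit.

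No paired analysis was possible because the groups share no replicate numbers. The low counts of Col15a1 and Adam33 limit their precision, and each group mean rests on 6 mice.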
